A study of Mus musculus with 9 samples.

Results

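Hnf4a, Foxa1, Foxa2, Foxa3, Cebpa, Cebpb, Onecut1, Prox1 and Nr5a2 encode transcription factors of hepatocyte identity, and they were chosen by name. All 9 were in the deposited table of 24411 genes, and all 9 passed the filter on low counts that left 11199 genes for testing. Their RNA was measured in 9 livers of mice of the C57BL/6 background at 3 months of age, with 3 livers in each of 3 genotype groups. Mice of the group cont were Atg7flox/flox and carried no Cre. Atg7-KO mice were Atg7flox/flox;Alb-Cre, in which the albumin promoter drives Cre and so deletes Atg7, a gene needed for autophagy, in hepatocytes. This Cre can also act in bile duct cells, which share a progenitor with hepatocytes. S351A mice were Atg7flox/flox;Alb-Cre;p62S351A/p62S351A, so that both copies of p62, the autophagy receptor encoded by Sqstm1, had alanine for a serine, which weakens its binding to KEAP1. All 9 mice thus carried floxed Atg7, and both Alb-Cre groups lacked it in hepatocytes. For replicates 2 and 3 of S351A, the genotype label names another residue than the title, and the titles were followed.

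Hepatocyte identity is held by a small set of transcription factors that bind each other's genes as well as the genes for plasma proteins, bile acid enzymes and gluconeogenic enzymes. Hnf4a is a nuclear receptor at the centre of this set, the FOXA proteins open chromatin at liver enhancers, and the C/EBP proteins are basic leucine zipper factors active in metabolic and acute phase genes. Onecut1 (also called HNF6), Prox1 and Nr5a2 (also called LRH-1) act in the choice between hepatocyte and bile duct fate, in lipid metabolism and in bile acid synthesis.

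Of the 9 factors, 1 was called in Atg7-KO against cont, and the same gene, Foxa2, was the 1 called in S351A against cont. Foxa2 RNA was lower in both, at about 0.507 and 0.554 times its cont level. The 8 other factors, Hnf4a among them, were not called in any of the 3 comparisons. A gene was called when edgeR's quasi-likelihood F test gave a Benjamini-Hochberg adjusted p under 0.05 over the 11199 genes and the fold change was above 1.5. For comparison, 18.1% of all genes tested were called lower and 19.9% higher in Atg7-KO against cont. For S351A against cont these shares were 13.0% and 15.6%. Both comparisons share the cont livers. Levels are given in CPM, which relates a count to its library's total after TMM scaling.

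**Figure D1:**
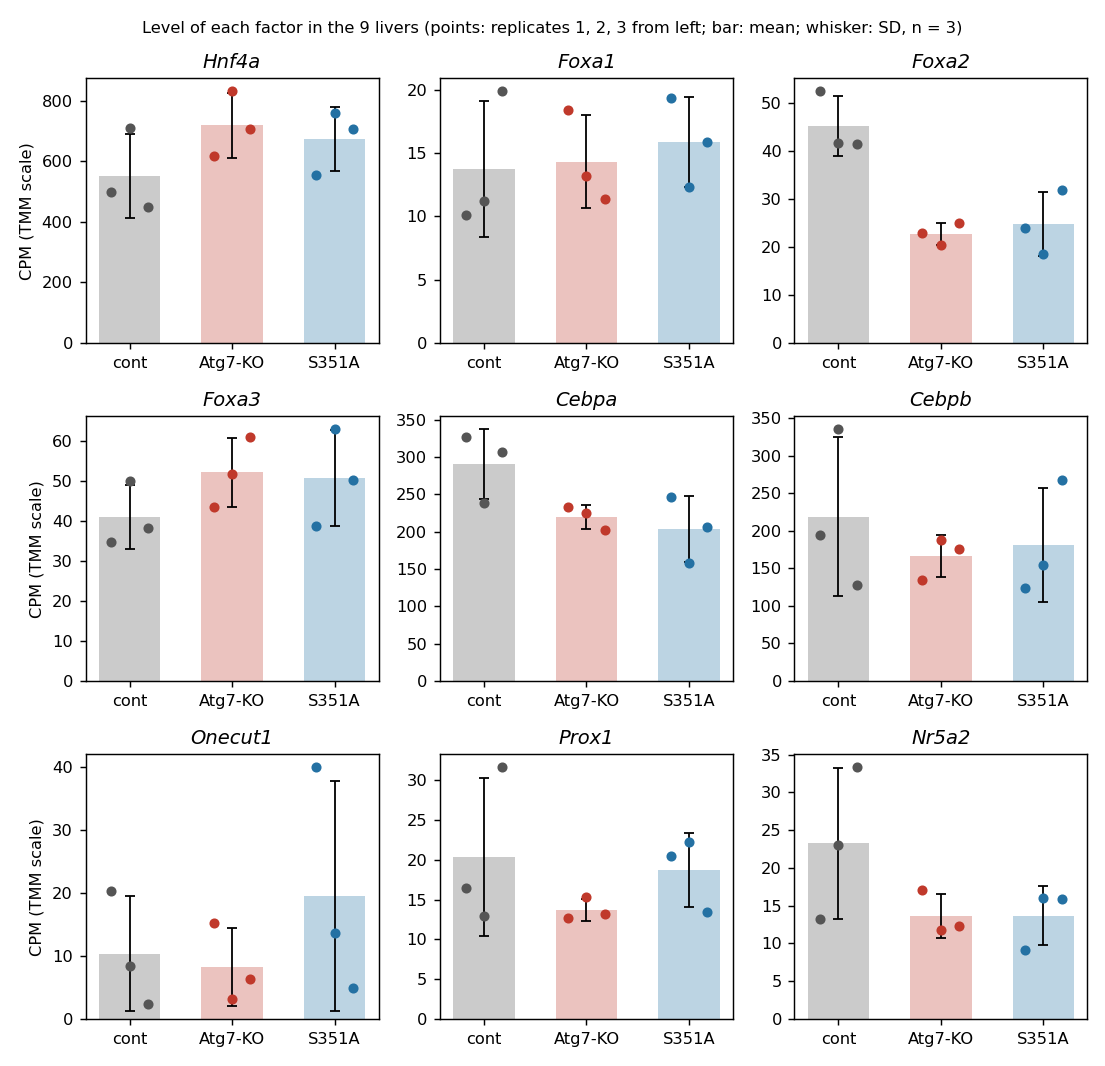
Level of each of the 9 factors in CPM on the TMM scale (vertical axes from 0) in the cont, Atg7-KO and S351A livers, with a point per liver, a bar at the mean and a whisker of 1 SD (n = 3). For Foxa2, the 3 cont livers lie between 41.4 and 52.4 CPM and the 6 others between 18.5 and 31.9 CPM, while the groups overlap for Hnf4a.

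Library totals were 1875314 to 15426566 counts in cont, 1945469 to 3675041 in Atg7-KO and 713835 to 792366 in S351A, so that depth and the p62 mutation cannot be told apart. At these depths 3 counts, taken as the floor, were worth 0.267 to 3.70 CPM, which covers counting error only. The intervals of fold changes come from the model fitted to the livers and include the spread between them. Atg7 was at 42.1 to 57.3 CPM in cont, and its log2 fold change was -0.74 in Atg7-KO (SE 0.19, adjusted p = 0.00757) and -1.07 in S351A (SE 0.21, adjusted p = 0.00318), each against cont and each lower, as labelled. Sqstm1 had a log2 fold change of 0.38 in Atg7-KO against cont (adjusted p = 0.169), -0.05 in S351A against cont (adjusted p = 0.875) and -0.43 between S351A and Atg7-KO (adjusted p = 0.766). By Xist and Y-linked genes, cont had 2 males and 1 female, and Atg7-KO and S351A each had 1 male and 2 females. The 8 hepatocyte markers, Alb and Ttr among them, summed to 48800 to 108000 CPM in cont, 30700 to 38000 in Atg7-KO and 29000 to 43900 in S351A. The 7 cholangiocyte markers summed to 33.2 to 48.4 CPM in cont, 630 to 927 in Atg7-KO and 472 to 818 in S351A. The sums were 241 to 397, 450 to 565 and 381 to 384 CPM for 10 macrophage markers, and 255 to 540, 735 to 1070 and 792 to 1180 CPM for 6 stellate cell markers. For 6 sinusoidal endothelial markers they were 93.5 to 180 CPM in cont, 69.5 to 86.1 in Atg7-KO and 65.0 to 116 in S351A, with 3 and 1 of the 6 called lower against cont. In whole liver, fewer cells of a type and less RNA per cell cannot be told apart, and the part of these cells in any result was not tested.

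Foxa2 is a forkhead pioneer factor of foregut endoderm that in adult liver also takes part in lipid and bile acid metabolism. The gene occupies chr2:148042877-148046969 of mm10, minus strand, where no other annotated gene overlaps it. Its level was 52.4, 41.6 and 41.4 CPM in cont replicates 1 to 3, from 83, 119 and 465 counts. In Atg7-KO it was 22.8, 20.3 and 25.0 CPM, from 99, 57 and 55 counts. In S351A it was 24.0, 18.5 and 31.9 CPM, from 21, 15 and 26 counts. Every cont liver was above every liver of the other groups, and the Atg7-KO range lay within the S351A range. The log2 fold change was -0.98 in Atg7-KO against cont (SE 0.21, 95% interval -1.44 to -0.52, adjusted p = 0.00315, n = 3 livers per group, edgeR). The S351A value against cont was -0.85 (SE 0.24, 95% interval -1.37 to -0.34, adjusted p = 0.0182). Between S351A and Atg7-KO it was 0.13 (95% interval -0.40 to 0.66, adjusted p = 0.956), so a recovery or further loss of up to 1.58-fold or to 0.756-fold lay within the interval. A test of the 3 groups together gave Foxa2 an adjusted p of 0.00563, and 35.1% of all genes had an adjusted p under 0.05 in it.

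The difference in Foxa2 depended on how libraries were scaled. With total library sizes, under which the median of all genes moved up by 0.543 for Atg7-KO and 0.490 for S351A, its log2 fold change was -0.45 (adjusted p = 0.136) and -0.37 (adjusted p = 0.295). The same scaling changed the calls over all genes in Atg7-KO against cont from 2226 higher and 2028 lower to 4284 higher and 801 lower. Those in S351A went from 1746 higher and 1460 lower to 3498 and 512. The call in S351A was also lost without S351A replicate 1, at -0.84 (adjusted p = 0.0622), without replicate 2, at -0.71 (adjusted p = 0.0768), and with the 6 compared livers alone, at -0.78 (adjusted p = 0.0797). Ratios of counts within a library, computed after the levels had been seen, do not change with scaling. For each 100 counts of Hnf4a there were 10.5, 5.87 and 9.21 counts of Foxa2 in the cont livers. There were 3.70, 2.44 and 3.54 in Atg7-KO and 4.31, 2.43 and 4.51 in S351A, all below cont. For each 100 counts of the paralogue Foxa3 there were 151, 83.2 and 108 counts of Foxa2 for cont, 52.4, 39.3 and 41.0 for Atg7-KO and 61.8, 29.4 and 63.4 for S351A, again without overlap with cont. Against Cebpa the gap was narrower, and S351A replicate 3, at 15.5 counts per 100, lay within the cont range of 13.5 to 17.5. These ratios show unequal change between the genes of a pair and not which of them moved.

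**Figure D2:**
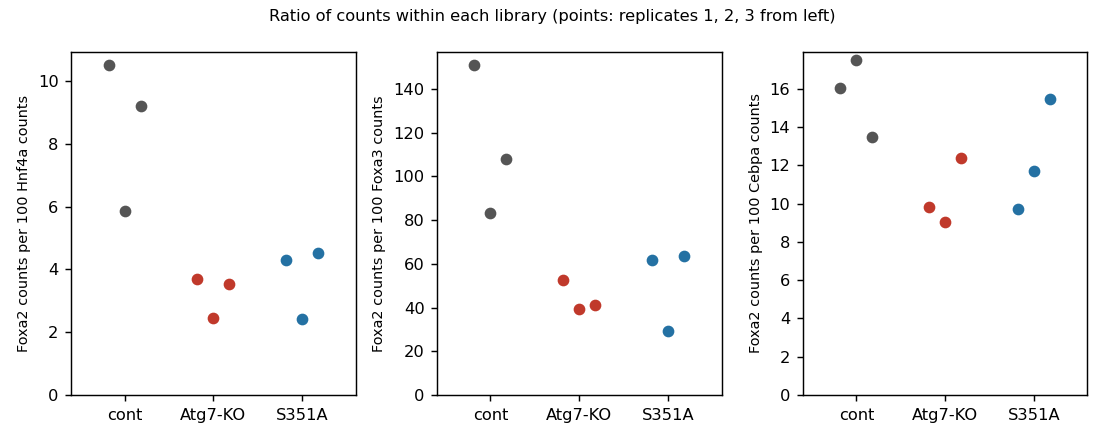
Foxa2 counts per 100 counts of Hnf4a, Foxa3 or Cebpa in each library (vertical axes, from 0; no scaling between libraries), with a point per liver by group. Against Hnf4a and Foxa3, all 6 Atg7-KO and S351A livers lie below the 3 cont livers, and against Cebpa S351A replicate 3 overlaps cont.

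RefSeq (GRCm38.p6) has 3 transcription starts for Foxa2, and 14 windows for the 9 factors, each from 250 bases before to 50 bases after a start. The windows were searched on both strands for the letters of sites that the factors themselves bind, because these factors are known to bind each other's genes. These were CAAAGTCCA for HNF4, TGTTTAC for FOXA, TTNNGCAA for C/EBP, ATTGAT for HNF6 and CAAGGTCA for NR5A2. GTTAAT, which is only a part of the HNF1 site, was added, although HNF1 is not among the 9 factors. TGACNNNGC, the core of the antioxidant response element, was added as well. Shown here are the Foxa2 windows with a match and both Hnf4a windows, as those of the factor that fell and of the most abundant nuclear receptor, with the match in capitals, read 5′ to 3′ on the gene's strand.
Foxa2 chr2:148046920-148047219 (-): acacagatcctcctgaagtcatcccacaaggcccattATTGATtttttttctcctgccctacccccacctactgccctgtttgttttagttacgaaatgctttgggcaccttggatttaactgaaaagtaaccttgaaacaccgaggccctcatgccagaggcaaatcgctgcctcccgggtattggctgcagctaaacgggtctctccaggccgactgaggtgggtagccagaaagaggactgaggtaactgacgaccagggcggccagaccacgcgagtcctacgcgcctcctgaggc
Foxa2 chr2:148045415-148045714 (-): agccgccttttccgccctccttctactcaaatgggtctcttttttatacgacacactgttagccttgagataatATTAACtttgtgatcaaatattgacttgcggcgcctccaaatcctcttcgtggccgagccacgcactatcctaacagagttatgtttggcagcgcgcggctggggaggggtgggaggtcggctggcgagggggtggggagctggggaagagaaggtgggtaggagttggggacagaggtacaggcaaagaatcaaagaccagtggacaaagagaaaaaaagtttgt
Hnf4a chr2:163506607-163506906 (+): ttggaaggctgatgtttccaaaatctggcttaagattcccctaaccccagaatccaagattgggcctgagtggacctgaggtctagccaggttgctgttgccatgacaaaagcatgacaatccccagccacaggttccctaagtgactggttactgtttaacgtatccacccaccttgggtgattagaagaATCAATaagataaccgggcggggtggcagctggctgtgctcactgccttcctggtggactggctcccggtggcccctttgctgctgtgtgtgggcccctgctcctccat
Hnf4a chr2:163546905-163547204 (+): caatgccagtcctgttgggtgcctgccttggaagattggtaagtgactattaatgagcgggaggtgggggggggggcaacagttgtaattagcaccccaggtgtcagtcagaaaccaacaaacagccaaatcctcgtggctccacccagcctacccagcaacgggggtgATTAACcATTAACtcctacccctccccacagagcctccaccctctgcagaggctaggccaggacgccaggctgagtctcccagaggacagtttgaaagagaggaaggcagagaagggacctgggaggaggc
The outermost Foxa2 window holds the HNF6 letters at -213 from the start, and the Hnf4a window at 163506607 holds them at -59. The innermost Foxa2 window holds the HNF1 letters at -176, and the other Hnf4a window holds them at -81 and -74. The third Foxa2 window, from 148045899 to 148046198, has none of the 7 motifs. Among 32851 windows of the same length in mouse, 7.54% held the HNF6 letters and 7.10% the HNF1 letters, so neither is rare. Elsewhere, Foxa1 had the FOXA letters at -141 (3.65% of windows), Cebpb the antioxidant response element core at -7 (12.4%), and Nr5a2 C/EBP letters at -243 and HNF1 letters at -236 in separate windows (10.8% of windows for C/EBP). No window of the 9 factors held the HNF4 letters (0.475% of windows) or the NR5A2 letters (1.56%). A match describes the sequence and is not a site of binding.

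Foxa1 and Foxa3, the paralogues of Foxa2, bind the same core sequence. Foxa1 (mm10 chr12:57540628-57546916, minus strand) was at 10.1, 11.2 and 19.9 CPM for cont, 18.4, 13.2 and 11.4 for Atg7-KO and 19.4, 12.3 and 15.9 for S351A. These ranges overlapped, and the log2 fold change in Atg7-KO against cont was 0.003 (95% interval -0.69 to 0.69, adjusted p = 0.996). For S351A against cont it was 0.13 (adjusted p = 0.814). Its counts ran from 10 to 224. With counts thinned to the smallest library, Foxa1 was at 0.79 in Atg7-KO (adjusted p = 0.146, edgeR) and 0.92 in S351A (adjusted p = 0.102, edgeR), and was called in neither. Foxa3 (mm10 chr7:19013284-19023538, minus strand), which is abundant in adult liver, was at 34.7, 50.0 and 38.2 CPM in cont. It was at 43.5, 51.7 and 60.9 CPM in Atg7-KO and at 38.8, 62.9 and 50.2 CPM in S351A, again overlapping. Its log2 fold change was 0.33 in Atg7-KO (95% interval -0.15 to 0.82, adjusted p = 0.259) and 0.30 in S351A (95% interval -0.22 to 0.82, adjusted p = 0.379), each against cont. Per kilobase of exon, Foxa3 and Foxa2 were side by side in cont, at 20.1 ± 3.92 and 19.0 ± 2.66 CPM per kb (SD, n = 3), and overlapped there. In Atg7-KO they were at 25.5 ± 4.26 and 9.58 ± 0.986 CPM per kb, and in S351A at 24.9 ± 5.92 and 10.5 ± 2.83 CPM per kb, without overlap in either group.

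Hnf4a (mm10 chr2:163506808-163572910, plus strand) controls genes of lipid, bile acid and plasma protein production. Its level was 498, 709 and 449 CPM for cont, 617, 832 and 706 for Atg7-KO and 555, 761 and 706 for S351A. The Atg7-KO and S351A means of 718 ± 108 and 674 ± 106 CPM were above the cont mean of 552 ± 138 CPM (SD, n = 3), but the groups overlapped. The log2 fold change was 0.38 in Atg7-KO against cont (SE 0.25, adjusted p = 0.251), and its 95% interval ran from 0.893-fold to 1.90-fold. For S351A it was 0.29 (95% interval from 0.837-fold to 1.78-fold, adjusted p = 0.42). A loss of Hnf4a RNA beyond these lower bounds thus lay outside the intervals, whereas a gain of 1.5-fold lay inside. With total library sizes, Hnf4a was called higher, at 0.90 in Atg7-KO (adjusted p = 0.0128) and 0.76 in S351A (adjusted p = 0.0368). Foxa3 was called higher as well, at 0.87 (adjusted p = 0.00755) and 0.78 (adjusted p = 0.0246). An antisense gene, Hnf4aos, overlaps Hnf4a, and since the strand setting of the counting is not given in the sources used here, reads of the pair could not be told apart.

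Cebpa (mm10 chr7:35119293-35121928, plus strand) encodes the C/EBP factor of the resting, differentiated hepatocyte. It was at 327, 238 and 307 CPM for cont, 233, 225 and 202 for Atg7-KO and 246, 158 and 206 for S351A. The 3 Atg7-KO livers were all below the 3 cont livers, by a narrow margin, while S351A overlapped cont. The log2 fold change against cont was -0.40 in Atg7-KO (SE 0.22, 95% interval -0.89 to 0.086, unadjusted p = 0.0981, adjusted p = 0.178, edgeR). In S351A it was -0.51 (SE 0.23, 95% interval -1.01 to -0.019, unadjusted p = 0.043, adjusted p = 0.109, edgeR), where 41.0% of all genes had an unadjusted p under 0.05. With total library sizes the values were 0.13 and -0.0304. Foxa2 and Cebpa were the 2 of 9 factors without overlap in Atg7-KO against cont, where 51.6% of all genes had none. Foxa2 was the 1 factor without overlap in S351A against cont, where the share of all genes was 38.0%. Cebpb (mm10 chr2:167688915-167690418, plus strand), the C/EBP factor of the acute phase and of regeneration, was at 194, 336 and 128 CPM in cont. It was at 135, 188 and 176 CPM in Atg7-KO and 123, 154 and 267 CPM in S351A. Its cont livers spanned the range of all the others except S351A replicate 1, and the log2 fold change in Atg7-KO was -0.40 (95% interval -1.17 to 0.38, adjusted p = 0.41). For S351A the value was -0.27 (95% interval -1.06 to 0.51, adjusted p = 0.617). Gm45091 lies antisense to Cebpa and Tmem189 overlaps Cebpb, with the same limit on strand.

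Onecut1 (mm10 chr9:74861921-74891781, plus strand) had the widest spread of the 9 factors. It was at 20.2, 8.39 and 2.31 CPM for cont, 15.2, 3.21 and 6.36 for Atg7-KO and 39.9, 13.6 and 4.90 for S351A, from 4 to 66 counts. Replicate 1 of each group was the highest of its group. Log2 fold changes were 0.02 in Atg7-KO and 1.20 in S351A against cont, with 95% intervals from -1.60 to 1.64 and from -0.64 to 3.04 (adjusted p = 0.987 and 0.314). The S351A value rested on replicate 1, without which it was 0.0678 (adjusted p = 0.973). The interval in Atg7-KO thus spanned 0.329-fold to 3.12-fold, and changes within it remain possible. Prox1 (mm10 chr1:190118035-190170714, minus strand), a homeodomain factor that represses biliary genes and also marks lymphatic endothelium, was at 16.4, 12.9 and 31.7 CPM in cont. It was at 12.7, 15.3 and 13.2 CPM in Atg7-KO and 20.5, 22.2 and 13.5 CPM in S351A. Cont replicate 3 was above all other livers, and the groups overlapped. Its log2 fold change in Atg7-KO against cont was -0.64 (95% interval -1.33 to 0.06, adjusted p = 0.135), and without cont replicate 2 it was called lower, at -0.90 (adjusted p = 0.0287). Without cont replicate 3 it was -0.0836 (adjusted p = 0.844), and with total library sizes -0.0677 (adjusted p = 0.869). The S351A value was -0.19 (95% interval -0.97 to 0.60, adjusted p = 0.739). Gm28172 and Prox1os lie antisense to Prox1 and Gm20649 overlaps Onecut1 on its own strand, so reads of these pairs could not be told apart either. Lymphatic endothelial markers summed to 29.0 to 39.8 CPM in cont, 41.0 to 63.6 in Atg7-KO and 35.8 to 46.8 in S351A, and their part in Prox1 was not tested.

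Nr5a2 (mm10 chr1:136842571-136960448, minus strand), a nuclear receptor of bile acid and cholesterol genes that is also abundant in pancreatic acinar cells, was at 13.3, 23.1 and 33.4 CPM in cont. It was at 17.0, 11.8 and 12.3 CPM in Atg7-KO and 9.13, 16.0 and 15.9 CPM in S351A. Cont replicates 2 and 3 were above all 6 livers of the other groups and cont replicate 1 was among them. The log2 fold change was -0.81 in Atg7-KO (SE 0.32, unadjusted p = 0.0244, adjusted p = 0.0596, edgeR) and -0.84 in S351A (SE 0.38, unadjusted p = 0.0454, adjusted p = 0.114, edgeR), each against cont. Without cont replicate 1 it was called lower in both, at -1.06 (adjusted p = 0.011) and -1.09 (adjusted p = 0.0263). Without cont replicate 3 it was -0.43 (adjusted p = 0.304) and -0.47 (adjusted p = 0.38), and with total library sizes -0.24 and -0.32. With no filter on low counts it was also called in both, at -0.87 (adjusted p = 0.022) and -0.95 (adjusted p = 0.043). Of 5 acinar markers, Cpa1 was at 0 counts in all 9 libraries, and Pnlip and Ctrb1 had at most 3 in any. The 5 summed to 23.4 to 31.5 CPM in cont and 8.63 to 18.3 CPM in the 6 other livers, most of it Cela1. Cela1, an elastase gene and the 1 acinar marker that passed the filter, was called lower in both, at -1.10 and -1.07, and its part in Nr5a2 was not tested.

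**Figure D3:**
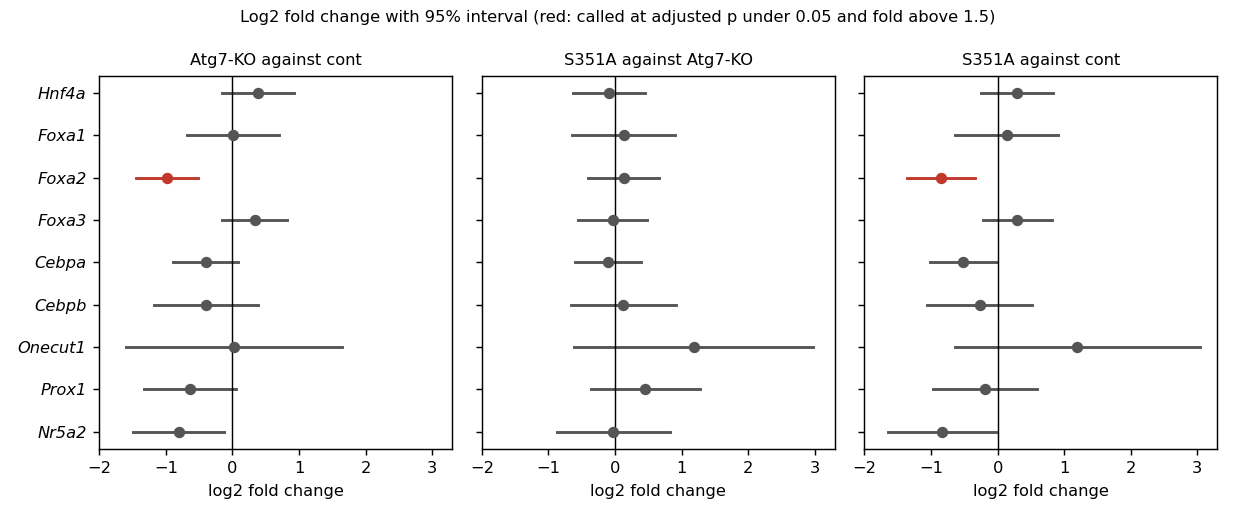
Log2 fold change of each factor (horizontal axis; a point with its 95% interval) in the 3 comparisons, with called genes in red. Foxa2 is the 1 red gene in both comparisons with cont, at -0.98 and -0.85, and all 9 intervals cross 0 in S351A against Atg7-KO.

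Between S351A and Atg7-KO livers, which differ in p62 and share the loss of Atg7, none of the 9 factors was called, and 0 had an unadjusted p under 0.05. Limma-voom called none either. DESeq2 called none of the 4 it gave an adjusted p (Hnf4a, Foxa3, Cebpa and Cebpb) and gave none for the 5 others, Foxa2 among them. Over all genes 1 was called, a share of 0.00893%, but 98 were called with no filter, 47 by DESeq2 and 10 with the 6 compared livers alone. In all, 6.60% had an unadjusted p under 0.05, and 16.9% did not overlap between the groups. All 9 factors overlapped. Log2 fold changes ran from -0.11 for Cebpa to 1.18 for Onecut1 (95% interval -0.61 to 2.97), which was 0.0946 without S351A replicate 1. For Hnf4a the interval ran from 0.644-fold to 1.37-fold, for Foxa3 from 0.682-fold to 1.40-fold and for Cebpa from 0.657-fold to 1.30-fold. For Prox1 it ran from 0.777-fold to 2.41-fold around a log2 fold change of 0.45. Those for Nr5a2 and Foxa1 were from 0.544-fold to 1.77-fold and from 0.639-fold to 1.87-fold. A miss of the threshold does not show that the groups were alike, and changes within these intervals remain possible.

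Per kilobase of exon, the factors fell into tiers. In cont, Cebpb, Hnf4a and Cebpa were highest, at 146 ± 70.7, 114 ± 28.6 and 110 ± 17.8 CPM per kb (SD, n = 3), and overlapped each other. Foxa3 and Foxa2 came next, separated from Cebpa above and Foxa1 below without overlap. Foxa1, Nr5a2, Onecut1 and Prox1 were between 2.42 and 4.13 CPM per kb, with overlap between neighbours. In Atg7-KO the order was Hnf4a, Cebpb and Cebpa, at 149 ± 22.4, 111 ± 18.6 and 83.4 ± 6.10 CPM per kb, and each neighbouring pair was separated down to Foxa1 and Nr5a2, at 4.31 ± 1.10 and 2.32 ± 0.494 CPM per kb. Nr5a2, Onecut1 and Prox1 overlapped their neighbours there. In S351A, Hnf4a, Cebpb and Cebpa were at 140 ± 22.0, 121 ± 50.4 and 77.1 ± 16.8 CPM per kb, each overlapping its neighbour in this order, and Foxa3 and Foxa2 stood apart below them as in Atg7-KO.

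The factors were also compared between the sexes as read from the data, a comparison chosen after the values had been seen, and none of the 9 was called, against 0.348% of all genes. Hnf4a was at 449 to 617 CPM in the 4 males and 706 to 832 CPM in the 5 females. Foxa3 was at 34.7 to 43.5 CPM in males and 50.0 to 62.9 CPM in females. Neither overlapped between the sexes, as was the case for 1.39% of all genes, and both were picked for it. In a fit with group and sex as terms, the log2 difference of females from males was 0.43 for Hnf4a (SE 0.18, unadjusted p = 0.0316, adjusted p = 0.646, edgeR) and 0.44 for Foxa3 (SE 0.17, unadjusted p = 0.0204, adjusted p = 0.561, edgeR). It was 0.76 for Cebpb (SE 0.23, unadjusted p = 0.00577, adjusted p = 0.337, edgeR), the smallest unadjusted p of the 9. For Onecut1 it was -1.26 (SE 0.59, unadjusted p = 0.0544, adjusted p = 0.743, edgeR). Levels of Cebpb and Onecut1 overlapped between the sexes. The difference for Foxa2 was -0.05 (adjusted p = 0.997). With sex in the fit, Foxa2 remained called at -0.96 in Atg7-KO (adjusted p = 0.00579) and -0.83 in S351A (adjusted p = 0.0301) against cont, and Hnf4a was at 0.25 and 0.16. Within males, Foxa2 was at 52.4 and 41.4 CPM for cont, 22.8 for Atg7-KO and 24.0 for S351A. Within females it was at 41.6 CPM for cont, 20.3 and 25.0 for Atg7-KO and 18.5 and 31.9 for S351A, where cont is a single liver.

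**Figure D4:**
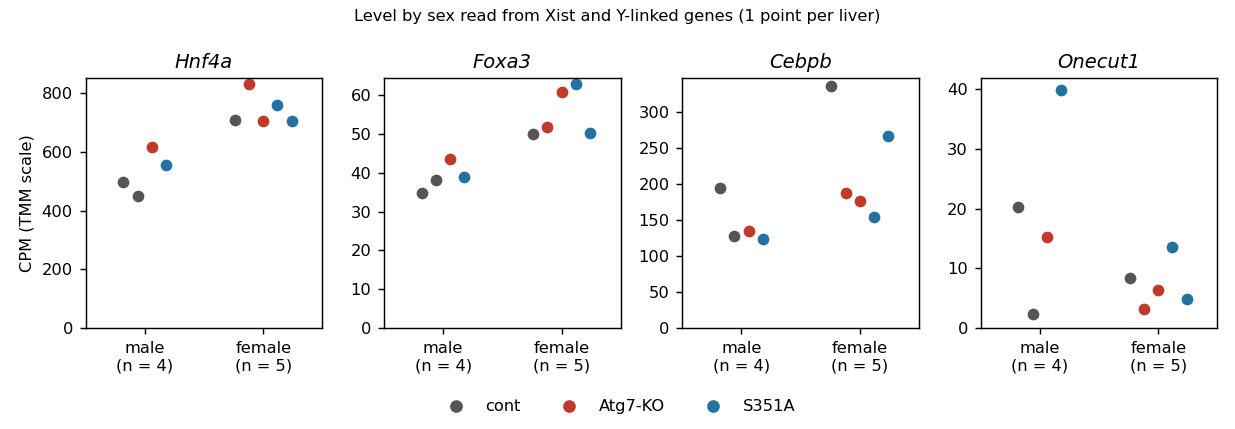
Levels in CPM on the TMM scale (vertical axes from 0) of Hnf4a, Foxa3, Cebpb and Onecut1 in 4 male and 5 female livers, with a point per liver coloured by group. Hnf4a and Foxa3 do not overlap between the sexes, whereas Cebpb and Onecut1 do.

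Other transcription factors of the liver were described from a list of 16, all tested. In Atg7-KO against cont 10 were called lower and 1 higher, with a median log2 fold change of -1.02, beside -0.40 for the 9 identity factors and -0.03 for all genes. Against cont, S351A had 8 called lower and 1 higher, with a median of -0.77 beside -0.19 and -0.03. With total library sizes 6 and 1 of the 16 were called lower. In S351A, 2 were called lower without its replicate 1, 4 without its replicate 2 or with the 6 compared livers alone, and 5 with thinned counts. Nr1i3, the xenobiotic receptor CAR, was at 304 ± 141 CPM for cont, 55.3 ± 13.3 for Atg7-KO and 110 ± 33.4 for S351A (SD, n = 3), and its log2 fold changes against cont were -2.45 and -1.46. Nr1h4, the bile acid receptor FXR, fell from 295 ± 51.1 to 96.7 ± 5.21 CPM in Atg7-KO, a log2 fold change of -1.61, and had one of -1.40 in S351A. Klf15, a factor of amino acid catabolism and gluconeogenesis, had log2 fold changes of -1.74 and -1.49. Hlf, a clock output factor, had -1.28 and -0.92. Tbx3, which marks pericentral hepatocytes, was called in Atg7-KO, at -1.60, and was at 84.0 ± 23.1 CPM in S351A beside 104 ± 54.4 CPM in cont. Creb3l3, a membrane-bound factor of fasting and lipid genes, had -1.21 and -1.07. Gata6, a zinc finger factor of early endoderm, was the 1 called higher, from 11.2 ± 1.87 CPM in cont to 29.1 ± 1.32 in Atg7-KO and 29.9 ± 5.57 in S351A. In S351A against Atg7-KO none of the 16 was called, but 1, Tbx3, was called higher by DESeq2, with no filter on low counts and with the 6 compared livers alone.

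Genes of hepatocyte products, many of them known targets of these factors, were mostly called lower. Of 26 on the list, 20 were called lower and 0 higher in Atg7-KO against cont (median log2 fold change -1.19), and 16 lower and 0 higher in S351A against cont (median -1.18). With total library sizes 12 and 8 of them were called lower and 1 higher in each. In S351A, 10 were called lower with the 6 compared livers alone, 12 without its replicate 1 and 11 without its replicate 2. G6pc, the last enzyme of gluconeogenesis, was at 703 ± 489 CPM for cont, 66.9 ± 0.32 for Atg7-KO and 100.05 ± 12.2 for S351A, with log2 fold changes of -3.39 and -2.81. Tat, tyrosine aminotransferase, had -3.39 and -2.74. Apoa2, a high-density lipoprotein protein, had -3.08 and -2.65, and F7, coagulation factor VII, had -2.08 and -1.66. Pck1, the gluconeogenic carboxykinase, was called in Atg7-KO at -2.00 and had -1.17 in S351A (adjusted p = 0.054). Cps1, of the urea cycle, was called in both, at -1.91 and -1.90. The summed level of the list was 73100 to 152000 CPM in cont, 46500 to 53800 in Atg7-KO and 45100 to 61400 in S351A.

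Transcription factors of bile duct and progenitor-like cells went the other way. All 8 on the list were called higher in Atg7-KO against cont (median log2 fold change 3.29) and 7 of 8 in S351A against cont (median 3.56). The number called in Atg7-KO was 5 without cont replicate 3 or without Atg7-KO replicate 1, 4 with at least 10 counts required in every library and 3 with counts thinned to the smallest library. In S351A it was 4 with at least 10 counts in every library, and 5 with thinned counts, with the 6 compared livers alone or without S351A replicate 1. Sox9, the biliary lineage factor, was at 30.7 ± 17.3 CPM for cont, 228 ± 47.5 for Atg7-KO and 258 ± 113 for S351A, with log2 fold changes of 2.92 and 3.10. Sox4, which acts with it, had 4.83 and 5.05. Ehf and Elf3, epithelial ETS factors near or under the floor in cont, had 4.79 and 3.65 in Atg7-KO and 4.90 and 4.03 in S351A. Hes1, the Notch target, had 1.23 and 1.40, although its levels overlapped with cont in both comparisons. The cholangiocyte marker sums given above rose with these genes, and Foxa1, Foxa2 and Onecut1 are known to be transcribed in bile duct cells too. What bile duct cells added to the levels of the identity factors was not tested.

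**Figure D5:**
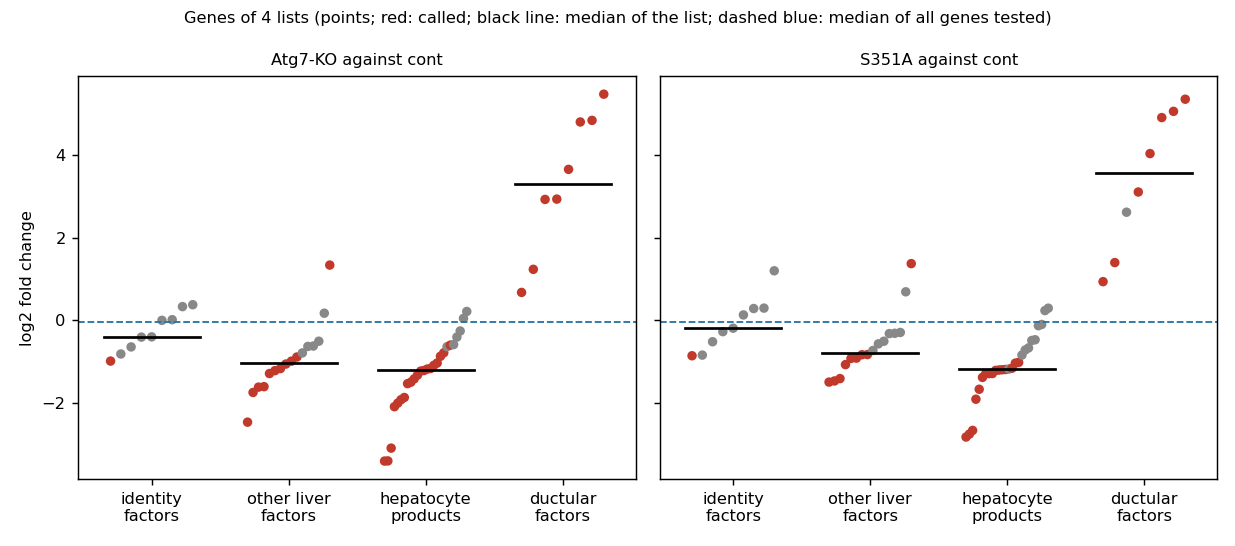
Log2 fold change (vertical axis) of the genes of 4 lists in Atg7-KO and S351A against cont, with a point per gene, called genes in red, list medians as black lines and the median of all genes as a dashed line. List medians in Atg7-KO are -0.40 for the identity factors, -1.02 for other liver factors, -1.19 for hepatocyte products and 3.29 for ductular factors.

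RNA of genes whose proteins pair with or regulate the 9 factors was measured for 12 of 13 symbols on a list, in which Cop1 stands in the table under its older symbol Rfwd2. In Atg7-KO against cont 4 were called lower and 0 higher (median log2 fold change -0.32), and in S351A against cont 1 was called lower. With total library sizes this turned to 0 lower and 4 higher in Atg7-KO (Cebpd, Cebpg, Ddit3 and Trib2) and to 1 lower and 2 higher in S351A. Nr0b2, the corepressor SHP that binds Hnf4a and Nr5a2, was at 105 ± 29.5 CPM for cont, 39.6 ± 14.5 for Atg7-KO and 32.5 ± 18.6 for S351A, with log2 fold changes of -1.44 (adjusted p = 0.0105) and -1.71 (adjusted p = 0.00963). Trib1, a pseudokinase that brings C/EBP alpha to degradation, had -0.70 in Atg7-KO (adjusted p = 0.0301), and Sirt1, a deacetylase, had -1.07 (adjusted p = 0.0416). Both calls were lost with sex as a term, at -0.62 and -1.09 (adjusted p = 0.0566 and 0.0562), and with thinned counts, at -0.81 and -0.69 (0.0644 and 0.431). That of Sirt1 was also lost by DESeq2, at -1.03 (0.0901), and without cont replicate 3, at -0.58 (0.25). Cebpe had -1.02 (adjusted p = 0.0175), although its groups overlapped. The 8 others were not called in Atg7-KO. Among C/EBP partners and stress factors, Cebpd was at 0.74, Cebpg at 0.30, Ddit3 at 0.46 and Atf4 at -0.63. Of these, Atf4 was called lower by DESeq2 (adjusted p = 0.0312), with no filter (0.0477), with a replicate block (0.0444) and without cont replicate 2 or S351A replicate 3 (0.0124 and 0.0434), and Cebpd was called higher by limma-voom (adjusted p = 0.0339). Trib2 was at 0.98, Trib3 at -0.21, Rfwd2, the ligase that works with Trib1, at -0.42, and Ppargc1a, a coactivator of Hnf4a, at 0.26. The number called in Atg7-KO depended on single libraries and was 0 without Atg7-KO replicate 1, 1 without replicate 3, 2 without replicate 2 or cont replicate 1, and 8 without cont replicate 2, 3 of them higher. In S351A it was 2 without cont replicate 1, 2 or 3 or without S351A replicate 1 or 3, with 1 of them higher in the case of cont replicate 2, and 3 with no filter or with a replicate block.

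Genes whose pattern over the 9 libraries was most like that of each factor were named by the root mean square (RMS) difference in log2 CPM, centred on the cont mean, among 9637 genes. Those nearest to Foxa2 were Dhrs4, Bag4 and Tti2, at 0.137, 0.139 and 0.150, where the median gene was at 0.845. For Hnf4a they were Ldb1, Tex261 and Tmem134 (0.105 to 0.131), and for Foxa3 they were Psme2, Denr and Acp1 (0.103 to 0.116). For Cebpa they were Ogt, 9430016H08Rik and Reep3 (0.0999 to 0.132), and for Cebpb they were Lims2, Zfp451 and Dnajc7 (0.141 to 0.199). Foxa1 was nearest to Sept9, Chchd1 and Unc50, Prox1 to Isoc1, Zyx and Gm6793, and Nr5a2 to Sar1b, Ncbp2 and Cyth1, all within 0.216. Onecut1 had no close match, the nearest being Zc3h6 at 0.549, A930013F10Rik at 0.557 and Pard3b at 0.633.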

How the data were processed

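Poly(A) RNA of 9 livers was sequenced as single-end reads. Per the labels and the study's methods, the authors trimmed reads with Trim Galore, mapped them to mm10 with STAR and deposited RSEM expected counts per gene symbol, not scaled between libraries. Tool versions, annotation and strand setting are not given in the sources used here. Between 4.40% and 7.75% of values per library were not whole, and all were rounded. Libraries held 713835 to 15426566 counts, which limits low genes most in S351A. Replicate pairs differed by 2.33 to 112 times counting error, so none was a repeat of another.

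Counts were analysed in R 4.3.3 with edgeR 4.0.16 (filterByExpr with minimum count 10 and minimum total 15, TMM, and a quasi-likelihood model with 1 term per group over 9 livers). The test was checked on simulated counts, whose spread was set and not taken from these livers. Of simulated 2-fold changes it called 28% in Atg7-KO against cont, 16% in S351A against Atg7-KO and 10% in S351A against cont. For 4-fold changes these shares were 96%, 99% and 90%. Most 2-fold changes were thus missed in the simulation. SEs come from the F statistic and intervals from the t distribution. Positions and exon lengths came from GENCODE M21, in which 23376 of 24411 symbols matched, and promoters from RefSeq, which had all 9 factors. Groups and replicate numbers came from the titles, which number the mice, so each replicate was taken to be a separate mouse. The table heads its columns WT, LKO and LKOSA, abbreviations that the labels do not spell out. They were read as cont, Atg7-KO and S351A, so the link of columns to samples is inferred.

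The members and lists were chosen with earlier results of these data known. Named were all 9 factors, Atg7, Sqstm1, every listed regulator, up to 5 called genes per list, comparison and direction (mean of 10 CPM or more where higher), and the 3 genes nearest to each factor. Alternatives were RLE factors, total library size, the total less the 20 largest genes, no filter, at least 10 counts in every sample, DESeq2 1.42.0, limma-voom (limma 3.58.1), the 6 compared samples alone, a replicate block, sex as a term, thinned counts, adjusted p alone and leaving out each library. The study's other genotypes were not used here, and the labels name no batch.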

Additional observations from a re-analysis of the deposited data

How the results depend on the processing

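The call of Foxa2 in Atg7-KO against cont held under every alternative except total library size and the total less its 20 largest genes (log2 fold change -0.45 and -0.55). In S351A against cont it was lost under both of these (-0.37 and -0.46), with the 6 compared samples alone (-0.78) and without S351A replicate 1 or 2 (-0.84 and -0.71). Depth limits Onecut1, Nr5a2 and Foxa1 most, with 4, 8 and 10 counts in their lowest library. The cause of these shifts was not tested, apart from scaling, which moves all genes together.

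In Atg7-KO against cont, the number of factors called was 2 with total library size and 2 with the total less its 20 largest genes (Hnf4a and Foxa3 in both), 2 with no filter, and 1 to 2 when single libraries were left out. For S351A against cont it was 2 with total library size, 2 with no filter, 0 with the 6 compared samples alone and 0 to 2 when single libraries were left out. With the total less its 20 largest genes it stayed at 1, but the gene called was Foxa3 and not Foxa2. Foxa3 was higher there, at 0.69 (adjusted p = 0.0406, edgeR). Over all genes, calls in Atg7-KO against cont were 4254, but 2505 with at least 10 counts in every sample and 2572 with thinned counts. Those for S351A against cont were 3206, but 1942, 2090 and, with the 6 samples alone, 1853, and 2099 to 3575 when single libraries were left out. In S351A against Atg7-KO 1 gene was called, but 98 with no filter, 47 by DESeq2, 10 with the 6 samples alone, 0 with at least 10 counts in every sample, with limma-voom and with thinned counts, and 0 to 3 when single libraries were left out.

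Signs turned for genes that were not called. Scaled by the total and by the total less its 20 largest genes, which move all genes together, the log2 fold changes in Atg7-KO were 0.13 and 0.0254 for Cebpa, 0.11 and 0.0203 for Cebpb, 0.34 and 0.23 for Trib3, and 0.12 and 0.0141 for Rfwd2. For S351A these scalings gave 0.20 and 0.12 for Cebpb and 0.33 and 0.22 for Prox1. In Atg7-KO, Foxa1 was at -0.0564 with no filter and -0.0092 with limma-voom, Ppargc1a at -0.0671 with sex as a term, and Onecut1 at -0.0376 with no filter, -0.27 by DESeq2 and -0.74 with thinned counts.

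Leaving out single libraries gave these ranges in Atg7-KO against cont: -0.22 to 0.44 for Foxa1, -0.68 to 0.0486 for Cebpb, -0.91 to 0.90 for Onecut1, -0.51 to 0.32 for Trib3 and -0.0371 to 0.87 for Ppargc1a. Against cont, S351A had -0.0487 to 0.56 for Foxa1, -0.68 to 0.17 for Cebpb and -0.46 to 0.36 for Prox1. In S351A against Atg7-KO they were -0.20 to 0.0273 for Hnf4a, -0.0429 to 0.36 for Foxa1, -0.10 to 0.30 for Foxa2, -0.22 to 0.12 for Foxa3, -0.28 to 0.0409 for Cebpa, -0.27 to 0.34 for Cebpb and -0.16 to 0.20 for Nr5a2.

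Deviations of livers from their group means were correlated at -0.0415 to 0.306 in same-numbered pairs across groups. In pairs with different numbers the correlations ran from -0.265 to 0.212. Replicate 1 was male and replicate 2 female in every group, so number and sex go together in part. The titles state no pairing, and the numbers were not taken to pair the samples in the main fit. With a replicate block, 4313, 1 and 3410 genes were called in Atg7-KO against cont, S351A against Atg7-KO and S351A against cont, Foxa2 was at -0.98 and -0.86 in the comparisons with cont, and Onecut1 was at -0.14 in Atg7-KO.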
